A study of Homo sapiens with 4 samples.

Results

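The J-domain proteins of the DNAJA, DNAJB and DNAJC classes are the co-chaperones that bring clients to HSP70 and switch on its ATPase. Their genes were followed in A549 cells with and without glutamine. Members were the protein-coding genes whose symbol starts with DNAJA, DNAJB or DNAJC, after the deposited transcript counts had been summed to genes. The rule found 45 members among 58560 annotated genes with a counted transcript, of which 19894 were protein-coding. By the place where the protein is known to work, 12 were taken as cytosolic, 11 as endoplasmic reticulum (ER) and 6 as mitochondrial. A further 4 were taken as nuclear and 5 as vesicle or endosome genes. The other 7 were taken as testis-restricted in humans or of uncertain place, and include the read-through gene DNAJC25-GNG10. By class, 4 were DNAJA, 12 DNAJB and 29 DNAJC genes.

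The study sequenced polyadenylated RNA from A549, an established human lung adenocarcinoma line labelled as alveolar basal epithelial. The glutamine-deprived group was 2 libraries from cells washed and then kept in glutamine-free DMEM, a standard culture medium, with 10% serum. The control group was 2 libraries from cells in DMEM with 10% serum and antibiotics and no treatment. The treatment label of deprived replicate 1 says 24 hours and that of deprived replicate 2 says 25 hours, whereas the protocol states 24 hours. Nothing in the labels says that replicates came from separate cultures, so the p-values measure the spread between these libraries, which may be technical. A549 is 1 line, and the groups hold no other line.

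An HSP70 chaperone binds exposed hydrophobic stretches of a client protein, and the J domain of its partner makes it hydrolyse ATP and close on the client. A nucleotide exchange factor then swaps ADP for ATP and lets the client go. Each compartment has its own HSP70 and its own J-domain proteins, so HSPA8 and HSPA1A serve the cytosol, HSPA5 (BiP) the ER lumen and HSPA9 (mortalin) the mitochondrial matrix. DNAJA1 and DNAJB1 are general folding co-chaperones and classical targets of the heat shock factor HSF1, whereas several ER members are targets of the unfolded protein response.

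The promoters of the member with the largest rise, the member with the largest fall among well-counted ones, and DNAJB6, are printed because the first lacked and the other two held a heat shock element. RefSeq windows on GRCh38.p14 run from 250 bases before to 50 bases after the annotated start. All 3 are on the plus strand, at chr2:219279116-219279415 for DNAJB2, chr9:33025023-33025322 for DNAJA1 and chr7:157336754-157337053 for DNAJB6. Capitals mark the heat shock element, read here as 3 units (GAA, TTC, GAA) with 2 bases of any kind between neighbours.
DNAJB2: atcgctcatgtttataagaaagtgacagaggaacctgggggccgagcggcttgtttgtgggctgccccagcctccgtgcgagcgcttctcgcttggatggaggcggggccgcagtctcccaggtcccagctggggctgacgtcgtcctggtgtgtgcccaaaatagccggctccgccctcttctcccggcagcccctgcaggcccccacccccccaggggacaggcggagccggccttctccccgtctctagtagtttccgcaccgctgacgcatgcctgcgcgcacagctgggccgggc
DNAJA1: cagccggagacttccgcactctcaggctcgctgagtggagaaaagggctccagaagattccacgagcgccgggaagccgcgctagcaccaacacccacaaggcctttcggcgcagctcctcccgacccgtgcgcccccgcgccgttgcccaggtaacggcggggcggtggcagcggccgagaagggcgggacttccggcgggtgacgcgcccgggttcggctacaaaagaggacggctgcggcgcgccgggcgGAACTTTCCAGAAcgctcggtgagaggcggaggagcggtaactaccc
DNAJB6: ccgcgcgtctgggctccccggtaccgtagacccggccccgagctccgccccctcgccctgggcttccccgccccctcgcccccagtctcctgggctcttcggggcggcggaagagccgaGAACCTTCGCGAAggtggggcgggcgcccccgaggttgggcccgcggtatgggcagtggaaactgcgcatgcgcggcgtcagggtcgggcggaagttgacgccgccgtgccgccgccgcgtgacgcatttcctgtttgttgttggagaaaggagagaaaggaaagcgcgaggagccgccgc

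Windows were found for 41 of the 45 members, 53 windows in all, and none was found for DNAJC1, DNAJC5B, DNAJC22 and DNAJC24. Searched on both strands, the heat shock element was in 2 of the 53 member windows (3.77%) and in 86 of 22199 windows of protein-coding genes (0.387%). In DNAJA1 the match GAACTTTCCAGAA began at position 4, with the start as position 1, and in DNAJB6 the match GAACCTTCGCGAA began at position -131. The ER stress element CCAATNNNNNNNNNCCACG was in none of the member windows and in 23 of all windows (0.104%). The C/EBP-ATF element TGATGNAA was in 1 member window, that of DNAJA4 at position -248, and in 597 of all windows (2.69%). No match overlapped another motif. These are matches of letters in a short window, and DNAJA1 and DNAJB6, which share the heat shock element, were lower and higher in deprived cells.

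Over the family, 42 of the 45 members passed the filter on low counts and were tested in a fit to 24527 genes. A member was called when edgeR's quasi-likelihood test gave it a p under 0.05 after Benjamini-Hochberg adjustment over all 24527 genes. In deprived cells 23 members were higher and 10 lower, and 9 were not called. Of protein-coding genes tested, 34.3% were called higher and 29.8% lower, or 64.1% in either direction, beside 54.8% of tested members called higher and 23.8% called lower. No test of that difference was made, and the counts moved with the scaling and with the transcripts counted. The shares of protein-coding genes are also the background for each count of calls by compartment, class or list below. Of all 24527 genes tested, coding or not, 6174 were higher and 5982 lower. With libraries scaled by size alone, 14 members were higher and 15 lower (33.3% and 35.7%), against 17% and 34.9% of all genes tested. With protein-coding transcripts alone, 16 members were higher and 9 lower (38.1% and 21.4%), against 30.3% and 28.6% of all genes so tested. The median log2 fold change, deprived over control, was 0.37 over tested members and 0.01 over protein-coding genes. Only 5 members were at least 2-fold higher and 3 at least 2-fold lower, against backgrounds of 15.1% and 16.6% of protein-coding genes, and 34 of the 42 had a fold change under 2. The 2 groups did not overlap in 40 of 42 members (95.2%), against 84.4% of protein-coding genes; DNAJC15 and DNAJB13 were the members that overlapped. Below, CPM is the count relative to the TMM-scaled library size, and the error of a log2 fold change is its SE. Bulk RNA cannot tell fewer cells of a type from less RNA per cell.

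**Figure D1:**
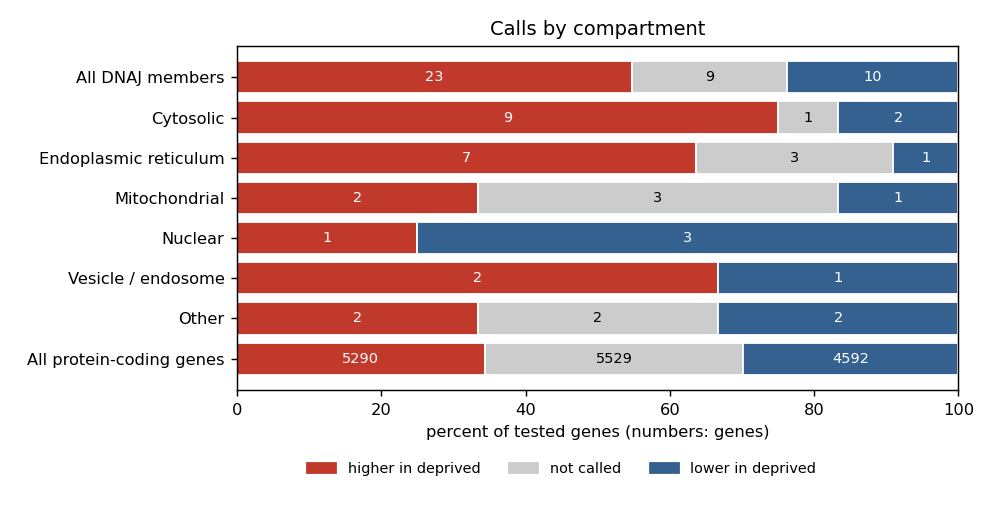
Percent of tested genes called higher, not called and called lower in deprived cells for each compartment of the DNAJ family and for all protein-coding genes, with the number of genes printed in each bar. The cytosolic bar has 9 members higher and 2 lower, and the nuclear bar 1 higher and 3 lower.

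Of the 12 cytosolic members, 9 rose, 2 fell and DNAJA4 was not called, beside 34.3% of protein-coding genes called higher and 29.8% lower. The median log2 fold change of the 12 members was 0.65. The number higher was 6 with library size alone or without control replicate 1, and 5 with protein-coding transcripts alone. DNAJB2 (HSJ1; chr2:219279267-219286900, GRCh38, plus strand), which binds ubiquitylated clients and steers them to the proteasome, had 397 and 339.7 CPM in deprived libraries against 26.4 and 29.2 CPM in controls. Both deprived libraries were far above both controls. The rise was 13.2-fold (log2 3.73 ± 0.11, adjusted p = 1.32e-05, edgeR), the largest among the members. The next cytosolic rise was that of DNAJB4, a class B co-chaperone, at 42.1 and 44.6 CPM in deprived libraries against 18.5 and 20.5 CPM in controls (log2 1.15 ± 0.09, adjusted p = 0.000134). DNAJA1 (chr9:33025211-33039907, plus strand), a farnesylated folding co-chaperone, went the other way. It had 61.8 and 60.6 CPM in deprived libraries against 157.6 and 171.0 CPM in controls, and fell 2.68-fold (log2 -1.42 ± 0.08, adjusted p = 3.94e-05). Its deprived libraries lay well below its controls.

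The remaining cytosolic rises were smaller. The ribosome-associated DNAJC2 had 33.9 and 34.0 CPM in deprived libraries against 19.6 and 17.4 CPM in controls (log2 0.87 ± 0.09), and DNAJC24, which acts in diphthamide synthesis, had a log2 rise of 0.76 ± 0.09. DNAJC7, whose TPR repeats bind HSP70 and HSP90, rose by 0.77 ± 0.13 on the log2 scale, but with protein-coding transcripts alone, which held 8.57% to 35.4% of its counts, it stood at 0.27 (adjusted p = 0.799). DNAJB6, known for holding polyglutamine proteins soluble, was at 127.5 and 125.6 CPM in deprived libraries against 79.9 and 85.2 CPM in controls, a 1.53-fold rise (log2 0.62 ± 0.07, adjusted p = 0.000702). DNAJA2, a general folding co-chaperone, rose by 0.39 ± 0.08 and DNAJC12, a partner of aromatic amino acid hydroxylases, by 0.35 ± 0.11 on the log2 scale. DNAJB5, a class B member, rose by 0.68 ± 0.20 at low levels, 4.07 and 4.02 CPM in deprived libraries against 2.77 and 2.27 CPM in controls. With protein-coding transcripts alone DNAJB5 turned to -0.63 (adjusted p = 0.189). It missed the threshold without any 1 of the 4 libraries (log2 0.53 to 0.82, adjusted p between 0.0564 and 0.171), DNAJC12 without any but control replicate 2 (adjusted p between 0.0594 and 0.212), and DNAJA2 without control replicate 1 (adjusted p = 0.0513). The stress-inducible DNAJB1 (HSP40) was at 80.5 and 76.4 CPM in deprived libraries against 100.1 and 99.6 CPM in controls, a small fall (log2 -0.35 ± 0.07, adjusted p = 0.0068). The class A gene DNAJA4 was at 0.507 and 0.931 CPM in deprived libraries against 1.31 and 1.35 CPM in controls and was not called (log2 -0.89 ± 0.36, adjusted p = 0.0866). It was called lower without deprived replicate 2 (log2 -1.38, adjusted p = 0.0138) and with library size alone (log2 -1.21, adjusted p = 0.036).

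**Figure D2:**
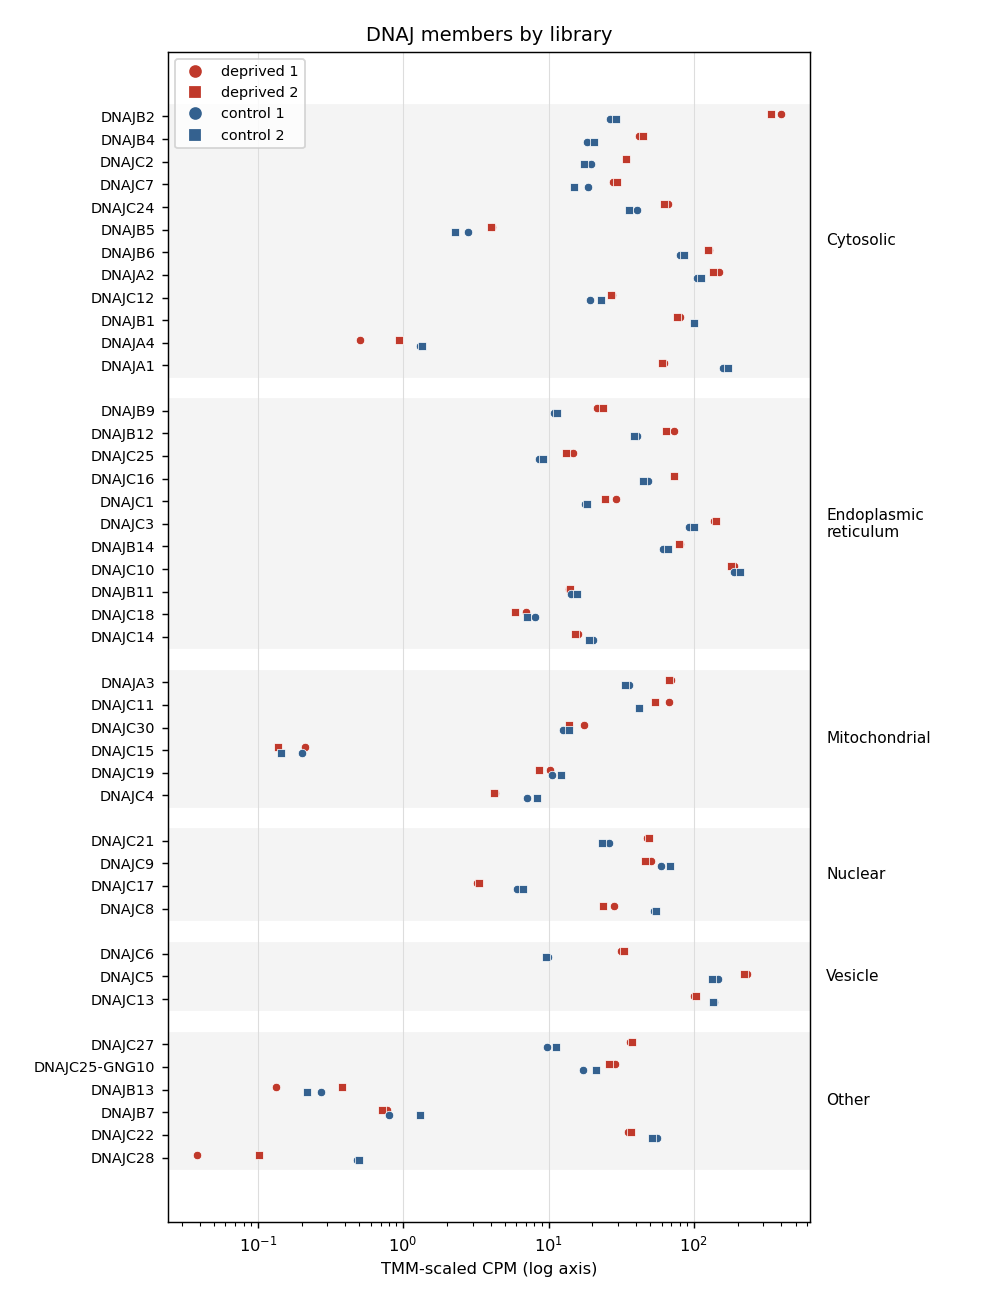
TMM-scaled CPM of the 42 tested DNAJ members on a log axis, with red points for the deprived libraries and blue points for the controls, circles for replicate 1 and squares for replicate 2. DNAJB2 stands at 397 and 339.7 CPM in deprived libraries and at 26.4 and 29.2 CPM in controls, whereas most members lie close together.

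Counted per transcript length, the order of members within a library changed at the top. On this scale (counts per kilobase, divided by the same sum over all genes and scaled) DNAJB2 ranked 1 of 45 in both deprived libraries, at levels of 201.5 and 252 against 23.2 and 23.6 in controls, where it ranked 20 and 18. It made up 16.9% and 18.6% of the family's summed level in deprived libraries and 1.91% and 2.16% in controls. DNAJA1 ranked 9 in both deprived libraries, at levels of 39.18 and 45.01, and 1 in both controls, at 145.6 and 138.5. DNAJB1 ranked 5 and 6 in deprived libraries and 2 in both controls, and DNAJA2 stayed at ranks 2 and 3 in deprived libraries and 3 in both controls. The TMM factors (0.862 and 0.919 in deprived libraries, 1.15 and 1.1 in controls) were not applied on this scale. Differences between groups on it are therefore not comparable in size with those in CPM, and small ones can differ in direction. The family's summed level was 1189 and 1353 in deprived libraries and 1216 and 1089 in controls, and these ranges overlap. The class B sum was 429 and 520.1 in deprived libraries against 273.7 and 251.5 in controls, while the class A sum was 161.5 and 172.6 in deprived libraries against 253.7 and 237.2 in controls. On this scale, without the TMM factors, each of these differences between groups in a class sum rested on 1 gene. Without DNAJB2 the class B sum was 227.6 and 268.0 in deprived libraries and 250.4 and 227.9 in controls, which overlap, and without DNAJA1 the class A sum was 122.4 and 127.6 in deprived libraries against 108.2 and 98.7 in controls. Without DNAJB2 the cytosolic sum was 429.0 and 485.8 in deprived libraries and 548.2 and 494.2 in controls. These sums lack the TMM factors and do not show how most members moved. In the fit, 7 of 11 tested class B members were called higher and 1 lower. Of the 4 class A members, 2 were called higher and 1 lower. Of the 12 cytosolic members, DNAJB2 included, 9 were called higher and 2 lower.

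Of the 11 ER members, 7 rose, 1 fell and 3 were not called, beside 34.3% of protein-coding genes called higher and 29.8% lower. The median log2 fold change of the ER members was 0.53. With library size alone 3 were higher and 4 lower: DNAJC1, DNAJC3, DNAJC25 and DNAJB14 lost their calls, and DNAJC10, DNAJB11 and DNAJC18 joined DNAJC14 as lower. DNAJB9 (ERdj4; chr7:108569568-108574850), which helps clear misfolded ER proteins and restrains the stress sensor IRE1, had 21.5 and 23.8 CPM in deprived libraries against 10.8 and 11.5 CPM in controls. The deprived libraries were both above the controls, and the rise was 2.03-fold (log2 1.021 ± 0.105, adjusted p = 0.00047, edgeR). DNAJC3 (p58IPK), a lumenal BiP co-chaperone and inhibitor of the eIF2α kinases, had 137.3 and 142.5 CPM in deprived libraries against 93.0 and 100.5 CPM in controls (log2 0.53 ± 0.07). The ER-membrane genes DNAJB12 and DNAJB14, which work with cytosolic HSP70 in ER-associated degradation, rose by 0.79 ± 0.09 and 0.33 ± 0.07 on the log2 scale, though DNAJB14 stood at -0.01 when libraries were scaled by size alone and missed the threshold without control replicate 1 (adjusted p = 0.0886). DNAJC25 (0.65 ± 0.12), DNAJC16 (0.64 ± 0.07) and DNAJC1 (ERdj1; 0.56 ± 0.11) rose by similar amounts on that scale.

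Not every BiP co-chaperone followed. DNAJC10 (ERdj5), a disulfide reductase, was at 187.8 and 181.0 CPM in deprived libraries against 188.3 and 206.3 CPM in controls (log2 -0.10 ± 0.08, adjusted p = 0.345, edgeR). DNAJB11 (ERdj3), which binds nascent clients, was at 13.8 and 14.1 CPM in deprived libraries against 14.3 and 15.8 CPM in controls (log2 -0.11 ± 0.11, adjusted p = 0.448). Neither passed the test, and in both the lowest control lay just above the highest deprived library. Of the DNAJB11 counts, 67.8% and 83.2% in deprived libraries and 79.5% and 77% in controls were on transcripts not of protein-coding type. DNAJC18 was not called (-0.24 ± 0.16), and DNAJC14 was called at log2 -0.34 ± 0.10 with an adjusted p of 0.0299, but 21.9% of its exon bases lie over ORMDL2 on the other strand and the use of strand is not stated. Its call was lost without any 1 of the 4 libraries, where the adjusted p ran between 0.0586 and 0.149.

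Of the 6 mitochondrial members, 2 rose, 1 fell and 3 were not called, beside 34.3% of protein-coding genes called higher and 29.8% lower. These calls did not set the mitochondrial members apart from protein-coding genes at large. The median log2 fold change of the 6 members was 0.13. The sign of the median was not stable: it was -0.22 with library size alone, -0.02 with protein-coding transcripts alone, -0.12 without deprived replicate 1 and 0.36 without deprived replicate 2. DNAJA3 (TID1), the matrix co-chaperone of HSPA9, had 70.0 and 67.5 CPM in deprived libraries against 35.5 and 33.5 CPM in controls. The groups were well apart, and the rise was 1.99-fold (log2 1.00 ± 0.07, adjusted p = 0.000119, edgeR). DNAJC11, a partner of the inner-membrane organising complex MICOS, had 67.9 and 53.6 CPM in deprived libraries against 42.0 and 41.9 CPM in controls (log2 0.53 ± 0.12), but 27.9% of its exon bases lie over THAP3 on the other strand. DNAJC4 was at 4.31 and 4.20 CPM in deprived libraries against 7.11 and 8.27 CPM in controls, a fall of 0.85 ± 0.16 (log2 -0.85, adjusted p = 0.00562). It shares 10.6% of its exon bases with NUDT22 on the same strand. NUDT22 had 1714 and 1742 counts in deprived libraries against 4595 and 4270 in controls, and its part in the fall was not tested. DNAJC19, the J-domain subunit of the import motor, was not called (-0.27 ± 0.15), nor were DNAJC30, linked to ATP synthase (0.25 ± 0.14), or DNAJC15, a motor regulator counted at under 1 CPM in every library.

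Of the 4 nuclear members, 3 fell and 1 rose, beside 29.8% of protein-coding genes called lower and 34.3% higher. DNAJC8, which associates with the spliceosome, had 28.4 and 23.7 CPM in deprived libraries against 52.8 and 54.7 CPM in controls, 2.07-fold lower (log2 -1.05 ± 0.10, adjusted p = 0.000383, edgeR). DNAJC17, a nuclear gene linked to splicing, was at 3.20 and 3.31 CPM in deprived libraries against 6.03 and 6.72 CPM in controls (log2 -0.97 ± 0.16), with 20.4% of its exon bases over GCHFR on the other strand. DNAJC9, a histone H3-H4 chaperone with 24% of its exon bases over FAM149B1, was at 50.9 and 46.3 CPM in deprived libraries against 59.7 and 68.2 CPM in controls (log2 -0.40 ± 0.10). The exception was DNAJC21, a factor of 60S ribosome maturation, at 47.7 and 49.1 CPM in deprived libraries against 26.0 and 23.4 CPM in controls (log2 0.97 ± 0.08). With protein-coding transcripts alone it stood at 0.28 and was not called (adjusted p = 0.182). In all 4 the deprived and control libraries did not overlap. DNAJC9 missed the threshold when deprived replicate 2 was left out (adjusted p = 0.0533) or control replicate 2 (adjusted p = 0.0726).

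Of the 3 vesicle and endosome members tested, 2 rose and 1 fell. DNAJC6 (auxilin), which uncoats clathrin vesicles with HSPA8, had 31.5 and 32.9 CPM in deprived libraries against 9.95 and 9.58 CPM in controls. Both deprived libraries were above both controls, 3.30-fold (log2 1.72 ± 0.09, adjusted p = 3.76e-05, edgeR). DNAJC5 (cysteine string protein alpha), a synaptic vesicle co-chaperone, had 233.1 and 220.7 CPM in deprived libraries against 145.8 and 132.7 CPM in controls (log2 0.70 ± 0.08). DNAJC13 (RME-8), an endosomal recycling factor, was lower, at 99.7 and 103.9 CPM in deprived libraries against 136.5 and 135.7 CPM in controls (log2 -0.42 ± 0.07). DNAJC5B had 0 and 3 counts in deprived libraries and 8 and 4 in controls and DNAJC5G had none in any library, so neither was tested.

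Among members of uncertain place, DNAJC27, a Rab-like GTPase with a J domain, had 36.3 and 37.7 CPM in deprived libraries against 9.78 and 11.2 CPM in controls. It rose 3.52-fold (log2 1.82 ± 0.10, adjusted p = 4.69e-05, edgeR), with no overlap between groups. DNAJC28, a little-studied member, had 4 and 11 counts in deprived libraries against 55 and 55 counts in controls, 6.90-fold lower (log2 -2.79 ± 0.59, adjusted p = 0.00962). Its counts were low, and its SE is the largest of any called member. DNAJC22 was lower (-0.57 ± 0.08), at 35.2 and 36.9 CPM in deprived libraries against 55.4 and 51.6 CPM in controls. The read-through gene DNAJC25-GNG10 was called higher (0.52 ± 0.12), at 28.8 and 26.1 CPM in deprived libraries against 17.2 and 21.1 CPM in controls, but 75.3% of its exon bases are shared with GNG10 and 24.7% with DNAJC25, and the call was lost without control replicate 1 (adjusted p = 0.064). DNAJB7 (-0.50 ± 0.34) and DNAJB13 (0.07 ± 0.62), both testis genes, were not called, and DNAJB8, also a testis gene, had no counts.

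**Figure D3:**
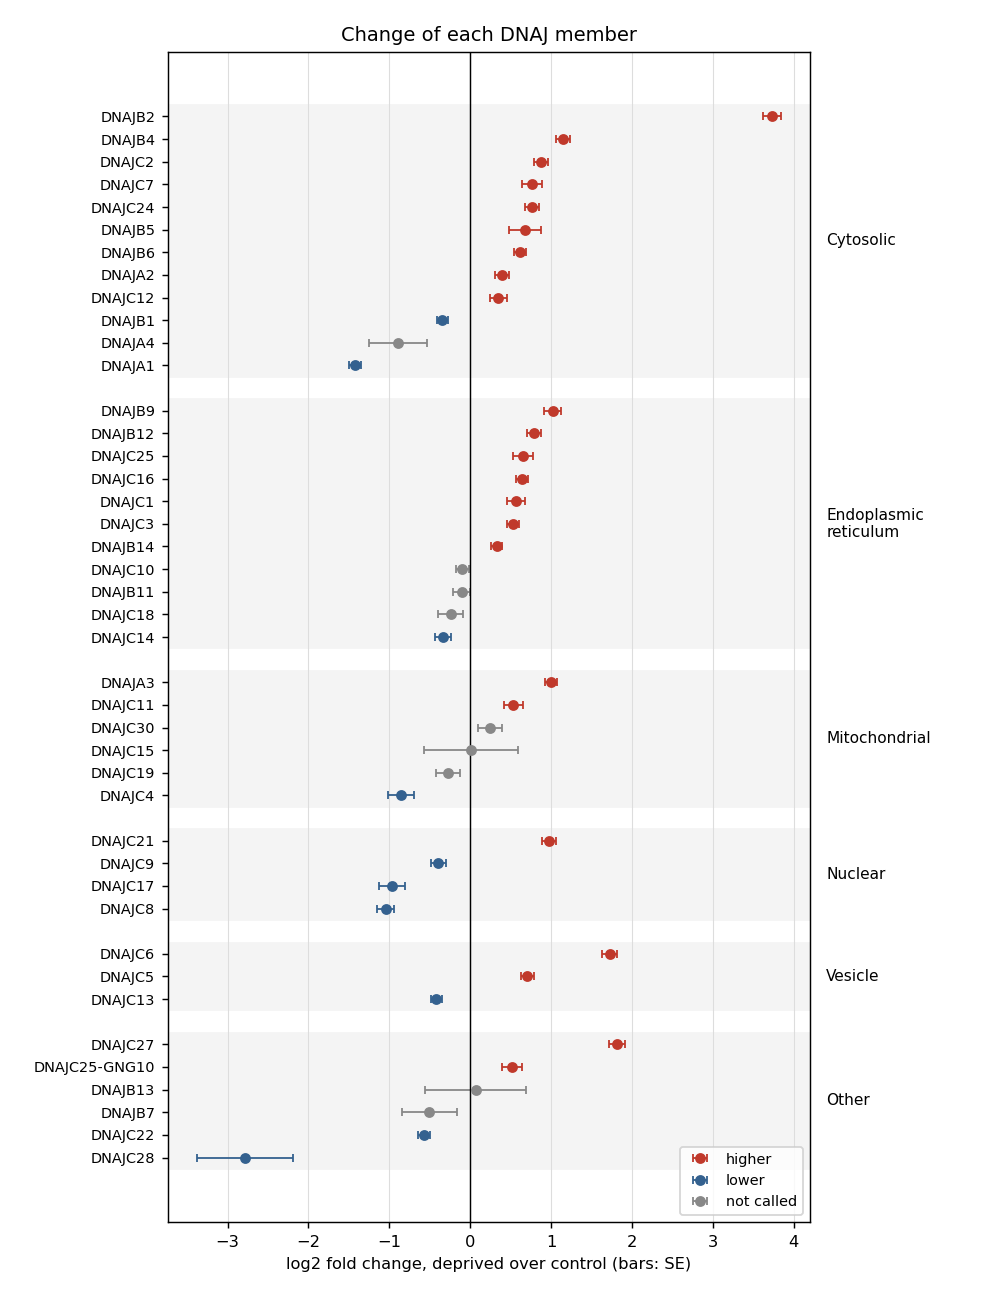
Log2 fold change, deprived over control, of each tested DNAJ member with its SE, grouped by compartment and coloured by call. DNAJB2 lies at 3.73, DNAJC27 at 1.82 and DNAJC6 at 1.72, and DNAJC28 at -2.79 and DNAJA1 at -1.42.

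Of 10 cytosolic HSP70 and HSP110 genes, 7 fell and 2 rose (median log2 fold change -2.08). HSPA8, the constitutive form, had 184.5 and 171.2 CPM in deprived libraries against 1661 and 1923 CPM in controls (log2 -3.33 ± 0.12). The stress-inducible HSPA1A and HSPA1B fell by 3.42 and 3.37 on the log2 scale, though near-identical sequence can split their reads arbitrarily between them. HSPA2 (-3.69 ± 0.11), HSPA1L (-2.40 ± 0.34) and HSPA6 (-1.75 ± 0.43), further members of the family, also fell on the log2 scale. HSPA4L, of the HSP110 type that also exchanges nucleotide, rose (1.13 ± 0.07), as did HSPA4 (0.74 ± 0.07), whereas HSPH1 fell (-0.61 ± 0.07) and HSPA14, the ribosome-bound partner of DNAJC2, was not called (0.28 ± 0.10). On the per-length scale the cytosolic HSP70 and HSP110 sum was 350.2 and 401.4 in deprived libraries against 2014 and 2054 in controls. The ratio of the cytosolic DNAJ sum to that sum was 1.80 and 1.84 in deprived libraries and 0.284 and 0.252 in controls. HSPA8 made up most of the control sum, at 1590 and 1676, and without it the ratio was 2.72 and 2.76 in deprived libraries and 1.35 and 1.37 in controls.

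In the ER and in mitochondria the HSP70 genes that were called rose. HSPA5 had 439.3 and 435.9 CPM in deprived libraries against 201.9 and 216.1 CPM in controls (log2 1.07 ± 0.08), and HSPA13, an atypical ER HSP70, rose by 1.71 ± 0.10. HYOU1, an ER HSP110, was not called (-0.17 ± 0.44), with 21.5 and 24.9 CPM in deprived libraries against 38.6 and 13.6 CPM in controls. The controls lay on either side of the deprived libraries, and without control replicate 1 HYOU1 was higher (log2 0.76, adjusted p = 0.00881). HSPA9 had 867.5 and 779.8 CPM in deprived libraries against 427.7 and 460.5 CPM in controls (log2 0.89 ± 0.09). The per-length ratio of DNAJ to HSP70 and HSP110 was 0.734 and 0.715 in deprived libraries against 1.24 and 1.18 in controls for the ER, and 0.223 and 0.212 in deprived libraries against 0.317 and 0.309 in controls for mitochondria. In each of the 3 compartments the libraries of the groups did not overlap in this ratio, for which no test was made. In CPM the groups did not overlap in 84.4% of protein-coding genes. The ER sum includes DNAJB12 and DNAJB14, which work with cytosolic HSP70. The ER ratio is therefore not one of co-chaperones to their own partners alone.

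The mitochondrial exchange factors GRPEL1 and GRPEL2 rose by 1.07 ± 0.08 and 1.47 ± 0.07 on the log2 scale, as did the cytosolic BAG5 (1.197 ± 0.074), whereas BAG1, BAG2, BAG3, BAG4, HSPBP1 and the ER factor SIL1 were not called. Of 7 genes of the import motor and channel that DNAJC19 serves, 4 rose and TIMM21 fell (-0.67 ± 0.13), with TIMM44, the motor's membrane anchor, at 1.24 ± 0.09 and the channel subunit TIMM17B at 1.13 ± 0.08. Among J-domain genes under other symbols, SEC63 of the translocon, the auxilin relative GAK and HSCB of iron-sulfur cluster assembly were not called.

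**Figure D4:**
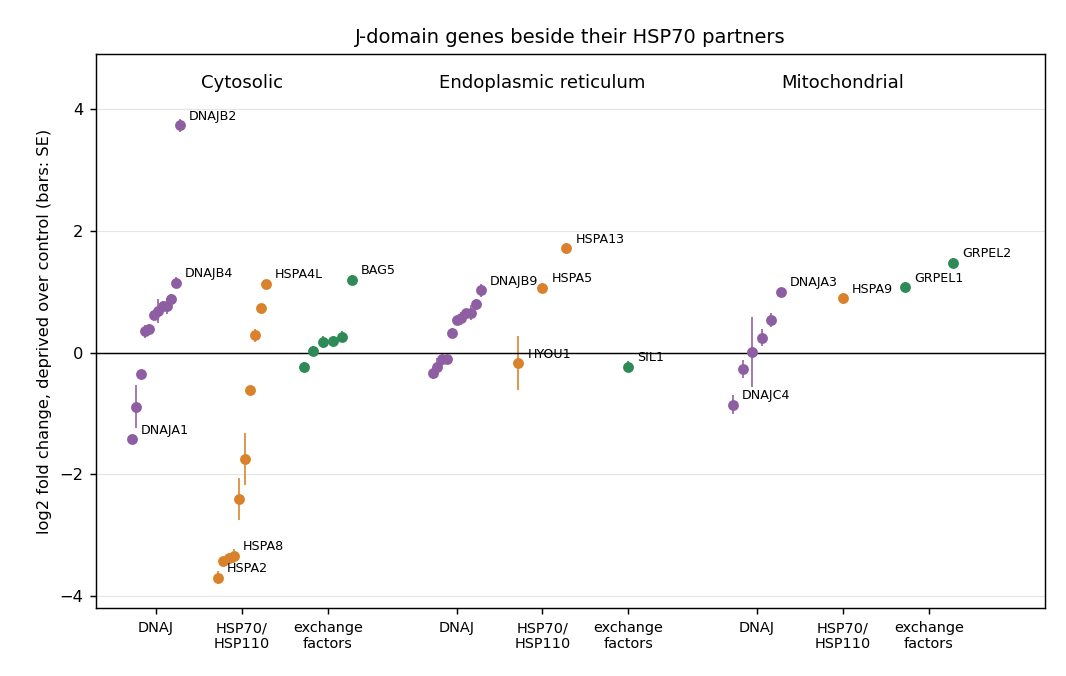
Log2 fold change, deprived over control, with SE for DNAJ members, HSP70 and HSP110 genes and nucleotide exchange factors in the cytosol, ER and mitochondria. In the cytosol DNAJB2 stands at 3.73 and HSPA8 at -3.33, while in mitochondria DNAJA3 (1.00), HSPA9 (0.89), GRPEL1 (1.07) and GRPEL2 (1.47) all lie above 0.

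The files give estimated counts for each transcript, so a gene's sum can hold transcripts that encode other proteins or none. In DNAJC27 the transcript DNAJC27-207, annotated with 177 residues, held 86.2% and 87.2% of the gene's counts in deprived libraries against 32.8% and 14.0% in controls. DNAJC27-201, with 273 residues, held 11.9% and 10.5% in deprived libraries against 62.6% and 81.8% in controls. Its counts were 451 and 429 in deprived libraries against 700 and 1012 in controls, so the rise of the gene lay on the shorter form. A like shift was seen in DNAJC12, where DNAJC12-202, with 107 residues, held 27.8% and 26.1% in deprived libraries against 5.14% and 8.98% in controls. In DNAJB6, the form of 241 residues (DNAJB6-204), known as cytosolic, held 9.02% and 27.7% in deprived libraries against 5.11% and 4.77% in controls. Most DNAJB6 counts were on DNAJB6-201 (326 residues), with 64.3% and 52.7% in deprived libraries and 52.6% and 52.5% in controls. The nonsense-mediated decay transcript DNAJB6-211 held 7.96% and 9.54% in deprived libraries against 19.3% and 20.2% in controls.

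For DNAJB2 the split between forms was not the same in the 2 deprived libraries. DNAJB2-201 (324 residues, the ER-anchored long form) held 71.4% and 26.2% in deprived libraries against 72.7% and 65.4% in controls, and DNAJB2-202 (277 residues, the cytosolic and nuclear short form) held 2.99% and 54.5% in deprived libraries against 8.02% and 5.51% in controls. A retained-intron transcript, DNAJB2-213, held 19.6% and 17.1% in deprived libraries against 5.53% and 9.74% in controls. DNAJC6 and DNAJC16 also divided differently between replicates. DNAJC6-201 held 83.2% and 0.056% in the deprived libraries, and DNAJC6-203 held 84.1% and 0% in the controls. DNAJC16-202 held 88.1% and 13.0% in deprived libraries and 21.3% and 38% in controls.

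The share of counts on transcripts that are not of protein-coding type was higher in both deprived libraries than in both controls in 10 of 42 tested members, lower in 7, and overlapping or tied in 25. The same tally was not made over all genes, so these counts cannot be read as particular to the members. DNAJC21 had 35.9% and 43.0% of its counts on protein-coding transcripts in deprived libraries against 60.6% and 62.1% in controls. DNAJC8 had 55.8% and 68.3% on them in deprived libraries against 92.3% and 80.3% in controls. DNAJB6 and DNAJC2 went the other way: such transcripts held 24.8% and 18.7% of DNAJB6 in deprived libraries against 40% and 40.4% in controls, and 17.6% and 22.7% of DNAJC2 in deprived libraries against 31.7% and 60.9% in controls. In DNAJB5 a retained-intron transcript (DNAJB5-209) held 76.7% and 85.1% in deprived libraries against 55.2% and 54.0% in controls. With protein-coding transcripts alone, DNAJA2, DNAJB14, DNAJC12, DNAJC13 and DNAJC25 lost their calls, beside DNAJB5, DNAJC7 and DNAJC21. In DNAJC13 the share of protein-coding transcripts was 98.6% and 98.7% in deprived libraries against 68.7% and 97.7% in controls, so control replicate 1 stood apart.

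**Figure D5:**
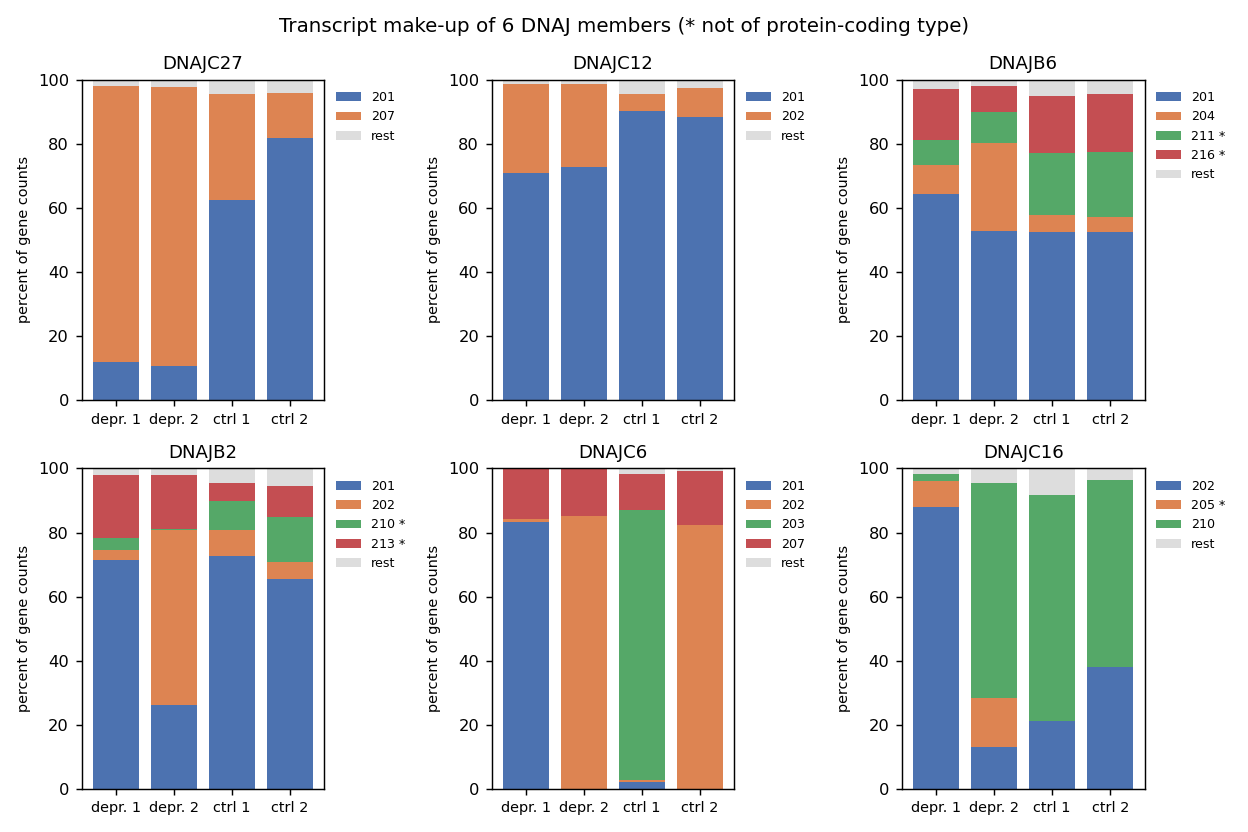
Percent of the gene's counts on each annotated transcript of 6 DNAJ members in each library, with an asterisk for transcripts that are not of protein-coding type. In DNAJC27 the transcript 207 holds 86.2% and 87.2% in deprived libraries and 32.8% and 14.0% in controls.

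The libraries held 120425759 to 123414592 counts in deprived cells and 101496318 to 101982373 in controls. All 6 epithelial markers were over 1 CPM in both controls, but EPCAM was at 0.498 and 0.756 CPM in deprived libraries. They summed to 3566 to 4178 CPM in deprived libraries and 8227 to 8387 CPM in controls, and 5 of them fell (KRT7 rose). Of 9 alveolar type II markers only 3 were over 1 CPM in any library, LAMP3 only in deprived libraries and NAPSA only in controls. SFTPA1 was at 0. Blood markers summed to 0.829 to 1.09 CPM in deprived libraries and 1.75 to 2.41 CPM in controls, and endothelial markers to 0.067 to 0.147 CPM in deprived libraries and 0.472 to 0.735 CPM in controls. Fibroblast markers summed to 0.776 to 1.23 CPM in deprived libraries and 1.43 to 1.65 CPM in controls. Alveolar type I markers summed to 521 to 552 CPM in deprived libraries and 278.8 to 308.6 CPM in controls, nearly all of it CAV1, with PDPN at 0. Of 3 neuronal markers, SYT1 rose, RBFOX3 fell and SNAP25 was not called, and their sum was 134.5 to 136.4 CPM in deprived libraries and 78.4 to 79.6 CPM in controls. The part of these shifts in the DNAJ values was not tested.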

How the data were processed

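Per the labels' protocols, mRNA was purified on poly-T beads for 2 deprived and 2 control A549 libraries. Per the submitters' processing notes, the build was hg38 and the tools, named without a role, were featureCounts 1.5.0-p3, HISAT2 2.0.5 and DESeq2 1.20.0. The authors deposited whole-number estimated counts for 229420 transcripts, and the tool that divided reads among transcripts is not given in the sources used here. GENCODE release 29 (GRCh38) matched 205306 of them, and 24114 were left out with 1.75% to 1.96% of each library's counts. Counts were summed to genes, filtered with filterByExpr by group and scaled with TMM in edgeR 4.0.16 under R 4.3.3. The threshold was an adjusted p of 0.05. The authors also deposited a table of 219 lncRNA transcripts with FPKM, log2 fold, p-values and q-values.

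Alternatives used DESeq2 1.42.0 and limma 3.58.1, other scalings, other filters, coding transcripts alone, a replicate block and each library left out. Values were whole, so no rounding was needed. The scripts were tested on simulated data. Replicates of a group differed by more than counting error (chi-square per degree of freedom 48.8 in deprived and 34.7 in control libraries). The correlation of same-numbered deviations was -0.0235, so no shift shared by same-numbered libraries was seen. This value cannot tell whether they shared a culture or day, which the labels do not state. Members and gene lists were chosen, and compartments assigned by hand, with earlier results of these data known. Values per library were given to members past the threshold with a log2 fold change of at least 1 in size, to the leading members of each compartment by level per length, and to others chosen after their values were seen. DNAJB3, typed as a pseudogene, was left out. A result on 1 gene outside the family is not reported here.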

Additional observations from a re-analysis of the deposited data

How the results depend on the processing

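Of 33 called members, 19 (12 higher, 7 lower) kept their direction and call in all 13 settings. RLE factors, DESeq2, limma-voom and a filter of 50 counts in 2 libraries changed no call among the members they tested. Scaling by library size only put the all-gene median at log2 -0.40, against -0.06 with TMM, and gave 14 members higher and 15 lower, medians of 0.036 over members, 0.31 over cytosolic, 0.20 over ER and -0.22 over mitochondrial members, 3 ER members higher and 4 lower, 1 mitochondrial member higher and 2 lower, and 14 partners lower. It turned DNAJB14 to -0.01 (adjusted p = 0.916), BAG2 to -0.31 (adjusted p = 0.0108) and TIMM50 to -0.034 (adjusted p = 0.734). Upper-quartile factors gave medians of 0.26 over members, 0.54 over cytosolic and 0.43 over ER members, and RLE factors and DESeq2 gave 0.68 for cytosolic members and the filter of 50 counts 0.60. Protein-coding transcripts alone gave 16 members higher and 9 lower (38.1% and 21.4%), against 30.3% and 28.6% of all genes so tested. In that setting 5 cytosolic members were higher, and medians were 0.21 over members, 0.28 over cytosolic and 0.41 over ER members. DNAJB5 stood at -0.63 there (adjusted p = 0.189, edgeR).

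The replicate block left 21 members higher and 9 lower (DNAJB5, DNAJC12 and DNAJC14 lost their calls), and no ER member was lower under the block (0) or with no filter (0). Without 1 replicate at a time, the medians ran from 0.30 to 0.45 over members, 0.57 to 0.69 over cytosolic, 0.43 to 0.57 over ER and -0.12 to 0.36 over mitochondrial members, with 0 ER members lower in each. HYOU1 ran from -0.75 to 0.76 over these fits (adjusted p = 0.00881, edgeR, at 0.76, without control replicate 1), and in that fit DNAJA2, DNAJB5, DNAJB14, DNAJC12, DNAJC14 and DNAJC25-GNG10 lost their calls. DNAJA4 and DNAJC30 gained one without deprived replicate 2. The causes of these changes were not tested. The sums without DNAJB2, DNAJA1 or HSPA8 were chosen after seeing the data.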

Other observations

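The lncRNA DNAJC3-DT, which starts beside DNAJC3, was listed in the authors' deposited table at 0.300 FPKM in deprived cells and 0.639 FPKM in control cells (log2 -1.09, q = 0.0459 in the authors' deposited table). In the per-library files its counts were 116 and 126 in deprived libraries and 234 and 0 in controls, so all its control counts come from 1 library. DNAJC3 itself was higher in both deprived libraries.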
